A study of Saccharomyces cerevisiae with 50 samples.

Results

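The promoters of 42 cell wall genes of Saccharomyces cerevisiae were examined for peaks of 6 myc-tagged transcription factors, among 6430 nuclear genes in all. The members are mainly structural proteins of the wall, enzymes that make, cut and join its glucan, chitin and mannan, and genes that separate daughter from mother cells. They were chosen by name, with earlier results of these data known. A promoter was the 600 bp before the gene start in the R64 annotation, and a factor was scored as present in an immunoprecipitation (IP) when a called peak overlapped that stretch by at least 1 bp. Each of the 42 names matched 1 gene. Some factor had a peak over 32 of the 42 promoters in at least 1 of the 30 peak lists, and the other 10 had none. Over all 30 lists, that is 76.2% of the members and 50.2% of all promoters.

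Peaks came from ChIP-Seq of Gcn4p, Rtg3p, Nrg1p, Sut1p, Swi4p and Swi6p in W303 strain Z1256, each carrying a myc tag and each assayed in the otherwise wild-type strain and in a strain whose predicted cofactor was replaced with a kanamycin marker. The pairs were Gcn4p in rtg3Δ, Rtg3p in gcn4Δ, Nrg1p in sut1Δ, Sut1p in nrg1Δ, Swi4p in swi6Δ and Swi6p in swi4Δ, and the question behind each was whether a factor needs its partner to occupy DNA. Gcn4p and Rtg3p strains were grown in rich YPD medium to an OD600 of 0.7 and then held in 100 nM rapamycin, an inhibitor of the TOR kinase, for 20 min. Nrg1p, Sut1p and Swi4p strains grew in YPD to an OD600 of 0.8 with no drug, and the labels name no growth condition for Swi6p. Each strain had 3 IPs, apart from Swi6p strains with 2 and Swi4p strains with 1. Wild-type IPs of a factor came from 1 culture that was split, whereas deletion strains were grown apart, so a difference between strains cannot be told apart from a difference between cultures.

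The yeast wall is a layer of beta-glucan fibres to which chitin and heavily mannosylated proteins are attached, and it has to be opened and rebuilt each time a bud forms. Many of its genes are transcribed as the bud emerges in late G1, and SBF is a known activator of a number of them. SBF consists of Swi4p, which contacts DNA, and Swi6p, which does not bind DNA directly and is brought to promoters by Swi4p or by Mbp1p. Separation of daughter cells comes at the end of the cycle and is known to depend on the activator Ace2p.

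Lists held from 3 to 1065 peaks, without read counts, so the depth of each IP is unknown. Every peak carries a MACS score of at least 50, which is larger for a smaller P-value. Many of the strongest peaks share the value 3100, and scores near it therefore do not separate promoters. A promoter without a peak was given a score of 0. The Sut1p lists stood apart from each other before any cell wall gene was considered: of the 439 promoters with a peak in the second wild-type IP, 39.9% also had one in the first and 20.3% in the third. Peaks cannot show whether a deleted gene was absent, and this was not checked.

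**Figure D1:**
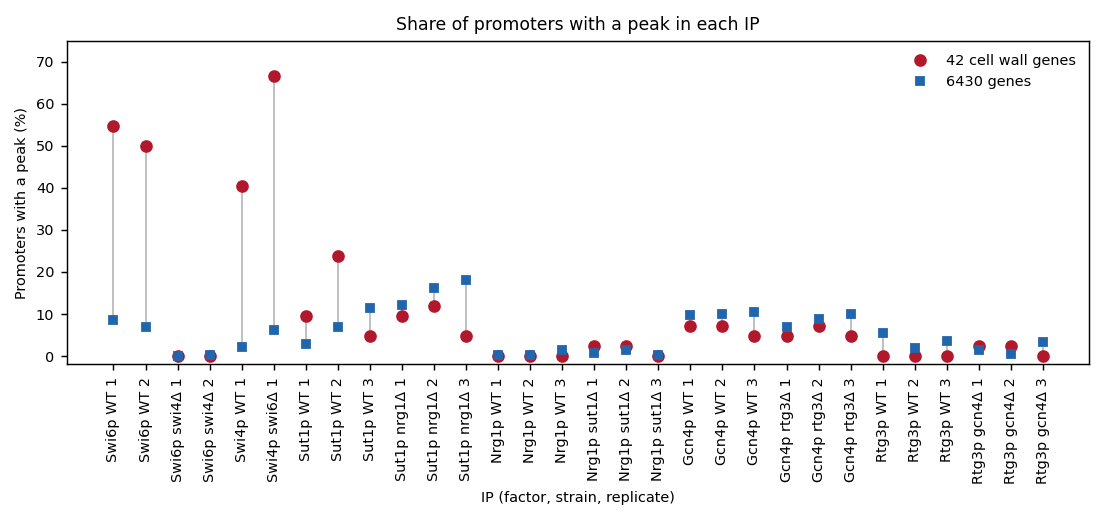
Percentage of promoters with a peak in each of the 30 IPs (WT, wild type). Circles are the 42 cell wall genes and squares all 6430 genes, with 1 value per IP. Cell wall genes stood at 54.8% and 50.0% in the Swi6p wild-type IPs, at 40.5% and 66.7% in the Swi4p IPs, and at 0% in both swi4Δ IPs.

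Swi6p and Swi4p had peaks at more of the cell wall promoters than the other factors did in wild type. In wild type, 21 of the 42 (50.0%) had a Swi6p peak in both IPs, beside 5.66% of all promoters, and 17 (40.5%) had a Swi4p peak, beside 2.26% of all promoters. Because the 42 were chosen with earlier results of these data known, these shares describe the list only. Of 75 further wall genes, 6.67% had Swi6p in both wild-type IPs and 6.67% had a wild-type Swi4p peak. All 17 with a wild-type Swi4p peak were among the 21 with Swi6p, whereas 70.3% of the 145 promoters with a wild-type Swi4p peak had Swi6p in both IPs. In swi4Δ none of the 42 had a Swi6p peak in either IP, and 0% of all promoters had one in both. In swi6Δ 28 of the 42 (66.7%) had a Swi4p peak, beside 6.1% of all promoters.

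By role, Swi6p was found in both wild-type IPs at 2 of 2 genes for beta-glucan synthesis and 4 of 7 for glucan remodelling. The same held at 2 of 2 for joining chitin to glucan, the 1 mannan gene and 4 of 9 GPI-anchored wall proteins. It also held at 2 of 4 PIR proteins, 2 of 3 SUN family genes and 4 of 4 members in none of the other role groups. Swi6p was found in both at 0 of 3 chitin synthases, 0 of 2 yapsins and 0 of 5 separation genes. Of the 20 highest-scoring peaks, 8 in the first Swi6p wild-type IP, 9 in the second, 9 in the Swi4p wild-type IP and 9 in the swi6Δ IP lay over a member. Of all peaks in these lists, the share behind the members' scores was 9.65%, 9.8%, 21.9% and 13.7%. The 20 highest ranks of the Sut1p lists held 1 such peak in the second wild-type IP and 0 in the other 5. The median of the mean Swi6p score was 876 over the 21 members and 184 over all 364 promoters with Swi6p in both IPs.

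**Figure D2:**
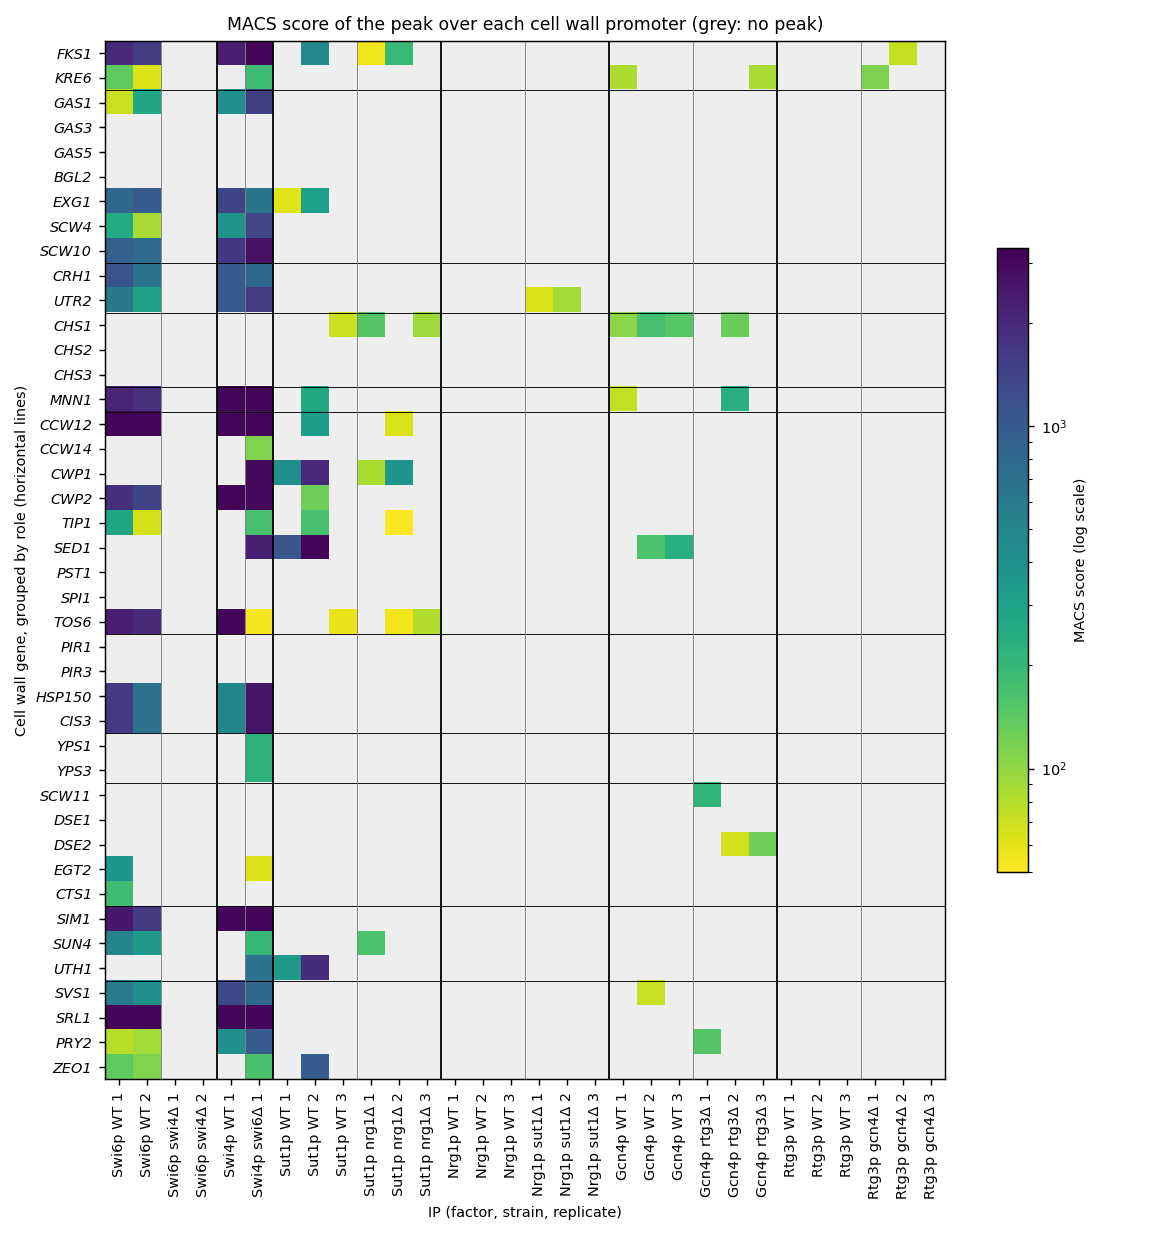
MACS score (colour, log scale) of the highest-scoring peak over each of the 42 promoters (rows, grouped by role) in each of the 30 IPs (columns, WT for wild type). Grey marks a promoter without a peak. Colour is concentrated in the Swi6p wild-type columns and both Swi4p columns, and the 2 swi4Δ columns are empty.

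Among genes for beta-glucan synthesis, FKS1, the catalytic subunit of glucan synthase (chromosome 12, 809997 to 815627), had Swi6p scores of 1982 and 1566 in the wild-type IPs, and Swi4p scores of 2315 in wild type and 3100 in swi6Δ. KRE6, needed for the beta-1,6 form of glucan, had Swi6p scores of 141 and 63.1, no Swi4p peak in wild type and a score of 185 in swi6Δ. The pair thus differed in Swi6p score by more than the gap between the IPs of either gene.

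Of the enzymes that remodel glucan, SCW10, a glucanase-like wall protein, had Swi6p scores of 908 and 778 and Swi4p scores of 1704 in wild type and 2747 in swi6Δ. EXG1, the main exo-glucanase, had 808 and 981 for Swi6p, and for Swi4p 1371 in wild type and 648 in swi6Δ. The related SCW4 had Swi6p scores of 251 and 86.6 and Swi4p scores of 377 and 1363. GAS1, which elongates glucan chains, had 70.3 and 274 for Swi6p and 405 and 1483 for Swi4p in wild type and swi6Δ. Swi6p scores of SCW10 and EXG1 lay above those of SCW4 and GAS1 in both IPs. EXG1 alone of these 4 had the lower Swi4p score in swi6Δ. GAS3 and GAS5, relatives of GAS1, and the glucan transferase BGL2 had no peak of any factor.

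CRH1 and UTR2, which link chitin to glucan, both had peaks in the 2 Swi6p and both Swi4p lists. CRH1 had Swi6p scores of 1092 and 661 and Swi4p scores of 975 in wild type and 808 in swi6Δ, and UTR2 had 620 and 302, then 976 and 1547. MNN1, the mannosyltransferase that caps mannan side chains, had Swi6p scores of 2115 and 1803 and Swi4p scores of 3074 and 3100. MNN1 therefore stood at or near 3100 for Swi4p in both strains.

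Of the 9 GPI-anchored proteins, 4 had Swi6p in both wild-type IPs, with scores from 3100 down to 65.1. CCW12, a major wall mannoprotein, was at 3100 in both Swi6p wild-type IPs and in both Swi4p IPs. Its peak in the first Swi6p IP ran from 368502 to 372111 on chromosome 12, where the gene occupies 369697 to 370098. TOS6, a predicted GPI protein, had Swi6p scores of 2324 and 1985, and CWP2, another mannoprotein, had 1838 and 1390. TIP1, a cold-shock-induced mannoprotein, was weaker, with Swi6p scores of 283 and 65.1, no Swi4p peak in wild type and 168 in swi6Δ. For the remaining 5, CCW14, CWP1, SED1, PST1 and SPI1, no Swi6p peak was called in any IP and no Swi4p peak in wild type, and the first 3 of them had a Swi4p peak in swi6Δ.

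HSP150 and CIS3, PIR proteins that attach directly to glucan, lie near each other on chromosome 10 and shared a single peak in every list, with Swi6p scores of 1633 and 693 and Swi4p scores of 479 in wild type and 2600 in swi6Δ. They are 1 observation, and counting shared peaks once left 20 Swi6p and 16 Swi4p peaks in wild type. PIR1 and PIR3 had no peak in any list. In the SUN family of glucanase-like wall proteins, SIM1 had Swi6p scores of 2500 and 1658 and was at 3100 for Swi4p in both strains, and SUN4 had 505 and 343 for Swi6p, no Swi4p peak in wild type and 199 in swi6Δ. UTH1 had no Swi6p peak and no wild-type Swi4p peak, so the 3 relatives did not share a pattern.

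All 4 members placed in none of the other role groups carried Swi6p in both wild-type IPs. SRL1, a mannoprotein, was at 3100 in all 4 wild-type and swi6Δ lists of Swi6p and Swi4p, as CCW12 was. SVS1, linked to vanadate resistance, had Swi6p scores of 581 and 408 and Swi4p scores of 1299 and 811 in wild type and swi6Δ. PRY2, a secreted sterol-binding protein, had 78.1 and 90.0 for Swi6p and 399 and 988 for Swi4p, and ZEO1, linked to zeocin resistance, had 141 and 110 for Swi6p, no wild-type Swi4p peak and 166 in swi6Δ. PRY2 and ZEO1 were thus near the low end of the Swi6p scores, which over the 21 promoters went down to 63.1. Across these 21, the score was higher in the first IP at 16, higher in the second at 3 and equal at 2.

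Without Swi4p, every one of these Swi6p scores was 0. At 21 of the 42 promoters the scores of both swi4Δ IPs were below those of both wild-type IPs, beside 5.66% of all promoters, and at none were they above (0% of all promoters). These are the promoters with Swi6p in both wild-type IPs counted again, because absent peaks score 0 and the swi4Δ lists were short. The share of the 42 with a peak was 52.4% ± 3.37 (SD, n = 2) in wild type and 0% ± 0 (SD, n = 2) in swi4Δ. Of all promoters, 7.78% ± 1.1 and 0.171% ± 0.132 (SD, n = 2) had one, and the swi4Δ lists held 3 and 8 peaks altogether. At any single promoter, CCW12 included, the exact permutation test over IPs gave a two-sided P of 0.333 (n = 2 per strain), the smallest that 2 IPs against 2 can reach. The part of these short lists in the difference at cell wall genes was not tested. With only the 3 highest-scoring peaks taken from each list, the difference in share was -2.38 percentage points instead of -52.4. So few peaks can cover few of the 42, so a small difference was set in advance and cannot decide this. In each wild-type list 5 peaks tied at 3100, 2 of them over a member, and ties were taken in order of chromosome and position.

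Swi4p was found at more cell wall promoters in swi6Δ than in wild type, in 1 IP per strain and so with no test. The 28 members with a peak in swi6Δ rested on 25 separate peaks, and the 17 in wild type on 16. All 17 with a Swi4p peak in wild type had one in swi6Δ too, compared with 86.9% of the 145 promoters of the whole annotation. A further 11 had a peak in swi6Δ and none in wild type, beside 4.14% of all promoters, and none had the reverse, beside 0.295%. Of these 11, KRE6, TIP1, SUN4 and ZEO1 carried Swi6p in both wild-type IPs, so that all 4 members with Swi6p and no wild-type Swi4p peak had a Swi4p peak in swi6Δ, against 39.3% of the 262 such promoters overall. EGT2 had Swi6p in a single IP. CCW14, CWP1, SED1, YPS1, YPS3 and UTH1 had no Swi6p peak at all. This split, 36.4% with Swi6p in both IPs and 54.5% with none, was near the 38.7% and 49.2% of all 266 promoters with a Swi4p peak in swi6Δ only.

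**Figure D3:**
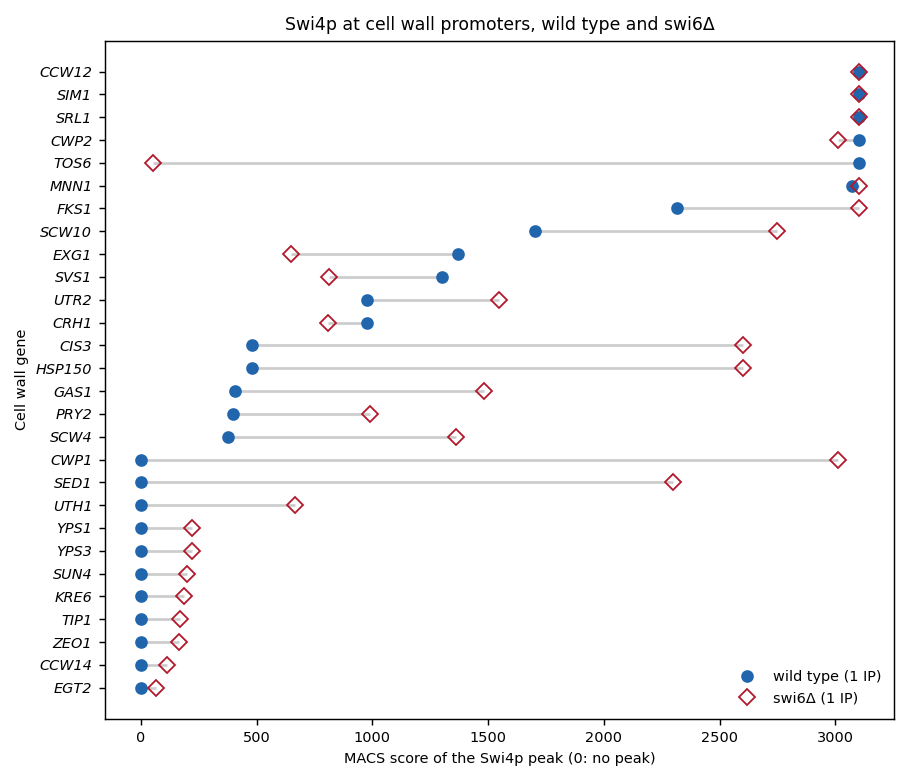
MACS score of the Swi4p peak over the 28 cell wall promoters with a peak in either strain, in wild type (filled circles) and swi6Δ (open diamonds), with 1 IP per strain and 0 for no peak. The lowest 11 genes stand at 0 in wild type, CWP1 and SED1 reach 3010 and 2297 in swi6Δ, and TOS6 has 3100 in wild type and 53.2 in swi6Δ.

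Of the 11 scores in swi6Δ, most were low. CWP1, a mannoprotein of birth scars, stood at 3010, SED1, the major wall protein of stationary cells, at 2297 and UTH1 at 667. YPS1 and YPS3, aspartic proteases of the yapsin family, shared a peak of 222, CCW14 had 111 and EGT2 had 63.3. The median was 199 for the 11 and 2600 for the 17 with a peak in both strains, whose wild-type median was 1371. Over the whole annotation the corresponding medians in swi6Δ were 140 and 1026, with 700 in wild type. Of the 17, 9 (52.9%) had the higher score in swi6Δ, 5 (29.4%) the lower and 3 (17.6%) were equal at 3100, near the 57.9%, 23.0% and 19.0% of the 126 promoters with a peak in both strains. MNN1, at 3074 and 3100, and CWP2, at 3100 and 3010, are in these counts with differences near the value that many peaks share. The widest drop was that of TOS6, from 3100 to 53.2, the 178th of the 182 peaks of its list.

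The swi6Δ list was longer, with 182 peaks against 73, and the 2 lists have unknown depths. With the 73 highest-scoring peaks taken from each, 19 of the 42 had a Swi4p peak in swi6Δ against 17 in wild type, and all promoters with a peak numbered 160 and 145. CWP1, SED1 and UTH1 were the 3 additional genes among these, and TOS6 was the 1 left out. The difference in share was then 4.76 instead of 26.2 percentage points. For CWP1, the peak called in swi6Δ ran over 4459 bp and also covered CWP2, whereas the wild-type peak at CWP2 covered 1568 bp and did not extend to CWP1. Its midpoint lay 1014 bp upstream of CWP1 and 865 bp past the start of CWP2, so which of the neighbours it belongs to was not resolved.

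Peaks at cell wall genes were wide relative to a promoter. Their median width was 2678 bp for Swi6p in wild type, 2914 bp for Swi4p in wild type and 3057 bp in swi6Δ, while the median over whole lists was between 1684 and 2128 bp. Of the 44 Swi6p pairs of gene and peak, the midpoint lay in the 600 bp promoter in 16 (36.4%), past the gene start in 21 and further upstream in 7. Requiring the midpoint in the promoter in both IPs left 6 of the 42, namely KRE6, SCW10, CWP2, SIM1, SRL1 and PRY2, beside 1.03% of all promoters, and for Swi4p in wild type it left 8 of the 17, beside 0.84%. At SCW10 the midpoints lay 130 and 128 bp before the start for Swi6p, and 132 and 142 bp for Swi4p in wild type and swi6Δ.

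Many peaks also covered promoters of other genes. In the first Swi6p wild-type IP, 17 of the 21 members shared their peak with at least 1 other promoter and 4 did not. The peak at SCW10 covered the divergent promoter of FKS3, a relative of FKS1, and the peak at SVS1 covered the promoter of its neighbour MLH3, a mismatch repair gene. At TIP1 the midpoints lay 1892 and 1895 bp upstream of the gene, and the peak also covered the promoter of the amino acid permease gene BAP2. At SUN4 they lay 1480 and 1335 bp upstream, with the ribosomal protein gene RPL9B under the same peak. FKS1, GAS1, SCW4 and MNN1 were the members with no other promoter under their Swi6p peak in that IP.

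**Figure D4:**
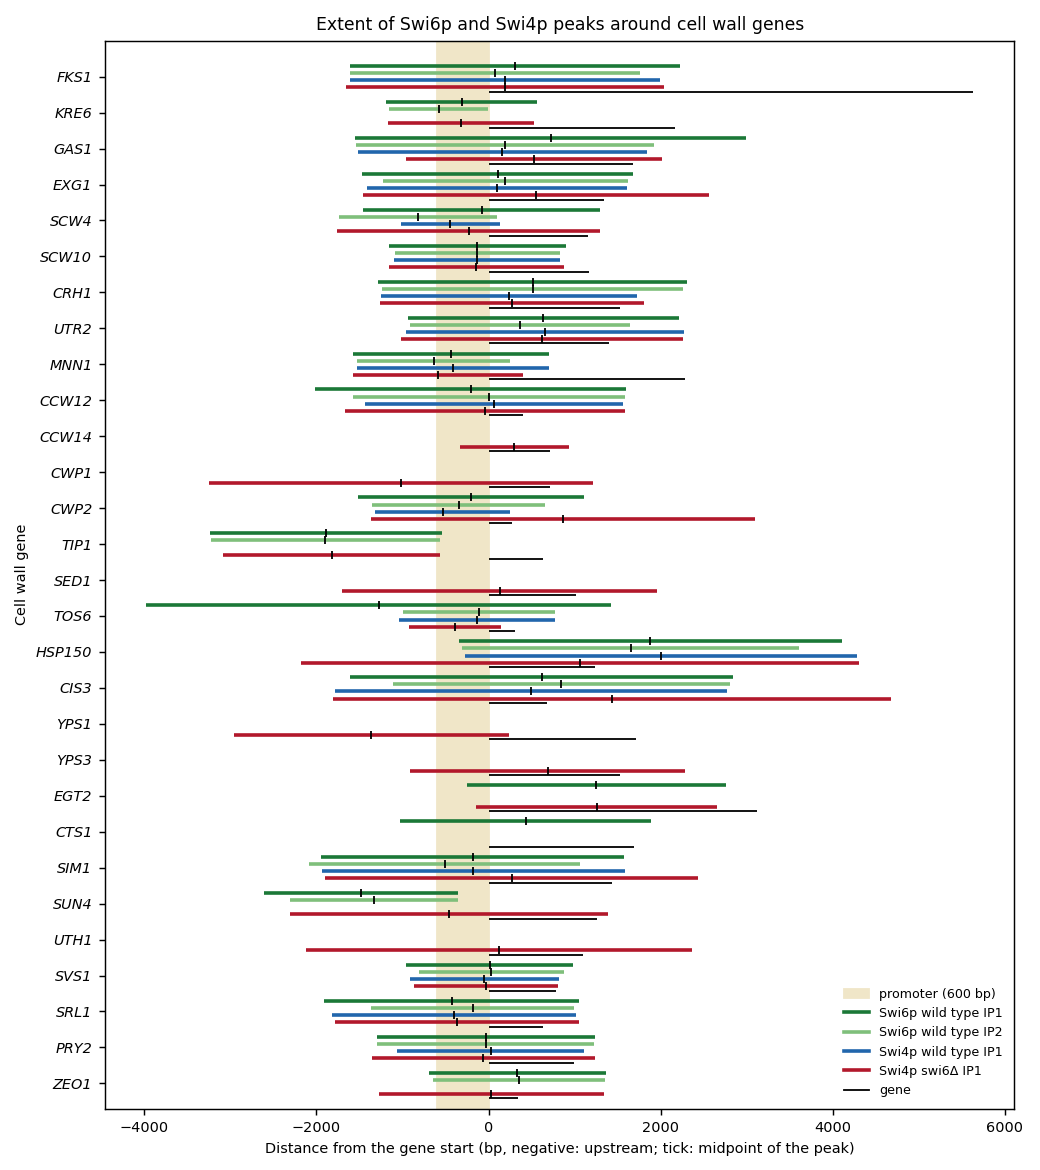
Extent of the Swi6p and Swi4p peaks (coloured lines) relative to the start of each cell wall gene, in bp, with a tick at the midpoint of each peak, the 600 bp promoter shaded and the gene as a thin black line. Peaks at SCW10 and SVS1 are centred near the gene start in all 4 lists, whereas those at TIP1 are centred 1821 to 1895 bp upstream.

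Sut1p, a zinc cluster regulator known from sterol uptake and hypoxic genes, was found at 4 of the 42 promoters (9.52%) in at least 2 wild-type IPs, beside 3.56% of all promoters. SED1 had scores of 1057, 3119 and 0 in the 3 wild-type IPs, CWP1 had 411, 1957 and 0, UTH1 had 350, 1905 and 0, and EXG1 had 61.4, 311 and 0. In nrg1Δ, SED1, UTH1 and EXG1 had no peak in any of the 3 IPs and CWP1 had scores of 83.8, 369 and 0. The order of SED1 above CWP1 above UTH1 was the same in both wild-type IPs with peaks, and the third IP had a peak at none of the 4. Consequently the scores of the strains overlapped at each of them. The exact permutation test gave a two-sided P of 0.4 for SED1, UTH1 and EXG1 and 0.5 for CWP1 (n = 3 per strain), where the smallest possible value is 0.1.

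All 4 Sut1p promoters had a Swi4p peak in swi6Δ, as did 66.7% of all cell wall members, with or without Sut1p. Of the 229 promoters in the whole annotation with Sut1p in at least 2 wild-type IPs, 24.5% had one. Whether Sut1p and Swi4p are linked at these members was not tested. The swi6Δ Swi4p peak at CWP1 also covered CWP2, and which gene it belongs to was not resolved. EXG1 alone of the 4 also had Swi6p and Swi4p in wild type. At SED1 the Sut1p midpoints lay 714 and 708 bp before the gene and the Swi4p midpoint in swi6Δ lay 131 bp past its start. At CWP1 the Sut1p midpoints lay 334 and 416 bp before the gene. Sut1p peaks were the narrower, with a median of 1396 bp at wild-type members.

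**Figure D5:**
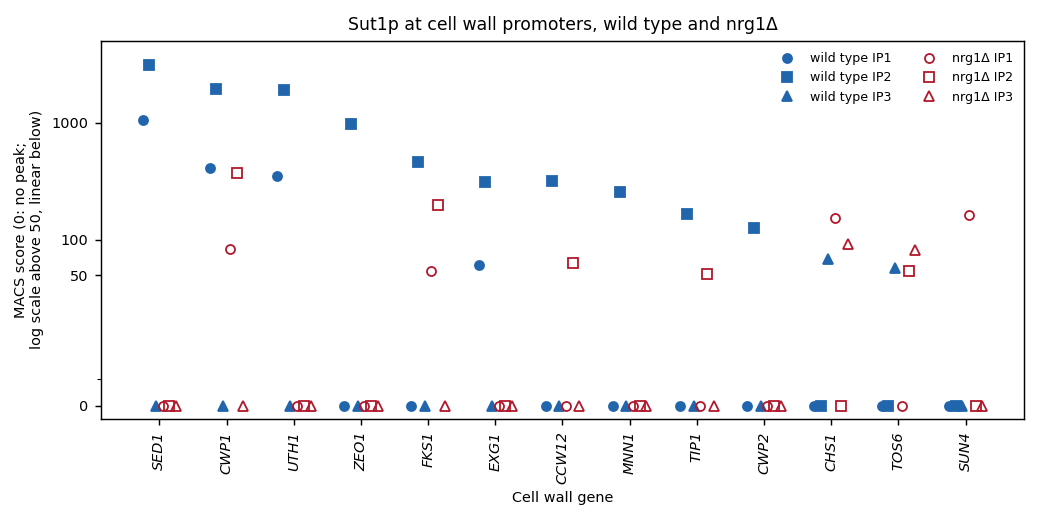
MACS score of the Sut1p peak at the 13 cell wall promoters with a peak in any Sut1p IP, in 3 wild-type IPs (filled) and 3 nrg1Δ IPs (open). The axis is linear up to 50 and logarithmic above, and 0 means no peak. SED1, CWP1 and UTH1 are high in the first and second wild-type IPs and at 0 in the third.

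Per wild-type IP, 4, 10 and 2 of the 42 promoters had a Sut1p peak. These shares of 9.52% and 23.8% lay above the 2.89% and 6.83% of all promoters in the first and second IPs, and the 4.76% in the third lay below 11.4%. The 10 of the second IP included all 4 of the first and none of the third, whose 2 promoters were those of CHS1, a chitin synthase that repairs the wall after separation, at 69.2 and TOS6 at 57.6. Without the first or the second wild-type IP, no member met the threshold of 2 IPs, and without the third the same 4 did. In nrg1Δ, 4 of the 42 (9.52%) had a peak in at least 2 IPs, beside 13.8% of all promoters. They were FKS1 at 54.4, 197 and 0, CWP1 as above, CHS1 at 153, 0 and 93.1, and TOS6 at 0, 54.7 and 81.5. Only CWP1 met the threshold in both strains. The other 3 each had 1 wild-type IP with a peak, of 459 at FKS1, 69.2 at CHS1 and 57.6 at TOS6, so that the strains overlapped.

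The mean share of the 42 with a Sut1p peak was 12.7% ± 9.91 in wild type and 8.73% ± 3.64 in nrg1Δ (SD, n = 3 each). For all promoters it was 7.02% ± 4.23 and 15.6% ± 3.05. The difference at cell wall genes, -3.97 percentage points, was smaller than the spread between wild-type IPs, and it was 1.59 without the second wild-type IP. For none of the 42 were scores in all nrg1Δ IPs above those in all wild-type IPs, beside 5.18% of all promoters, and for none were they below, beside 0.0778%.

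Gcn4p, the activator of amino acid synthesis genes, was found in at least 2 wild-type IPs at 2 of the 42 promoters (4.76%), beside 8.72% of all promoters. CHS1 had scores of 104, 171 and 151 in wild type and of 0, 129 and 0 in rtg3Δ. SED1 had 0, 164 and 240 in wild type and no peak in rtg3Δ. At both genes the strains overlapped, with an exact permutation P, two-sided, of 0.2 for CHS1 and 0.4 for SED1 (n = 3 per strain). Without the second or the third wild-type IP, CHS1 was the 1 promoter left. The midpoints lay from 220 to 457 bp past the start of CHS1 and 428 and 562 bp past that of SED1 in wild type. These peaks thus reached the promoter with their upstream part only. Sut1p peaks at CHS1 lay over much the same stretch, with midpoints 302 bp past its start in wild type and 235 and 134 bp past it in nrg1Δ. Whether the calls of these factors at CHS1 are linked was not tested.

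In rtg3Δ, 1 of the 42 (2.38%) had Gcn4p in at least 2 IPs, beside 6.89% of all promoters. It was DSE2, a glucanase-like daughter-cell gene, with scores of 0, 66.9 and 127 and no peak in wild type (exact permutation P of 0.4, two-sided, n = 3 per strain). KRE6, the third of the leading genes by mean wild-type Gcn4p score, had 83.7, 0 and 0 in wild type and 0, 0 and 85.4 in rtg3Δ. At none of the 42 were scores separated between strains, beside 0.855% of all promoters lower and 0.653% higher in every rtg3Δ IP. The share with a peak was 6.35% ± 1.37 in wild type and 5.56% ± 1.37 in rtg3Δ (SD, n = 3 each), a difference within that spread.

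Nrg1p, a repressor of glucose-repressed genes, and Rtg3p, an activator in the retrograde pathway from mitochondria to nucleus, had no peak at any of the 42 promoters in any wild-type IP. At least 2 wild-type IPs had a peak at 0.187% of all promoters for Nrg1p and at 2.32% for Rtg3p. In sut1Δ, UTR2 had Nrg1p scores of 63.8, 89.9 and 0 (exact permutation P of 0.4, two-sided, n = 3 per strain), the 1 member of 42 (2.38%) with a peak in 2 IPs, beside 0.7% of all promoters. The midpoints of these peaks lay 582 and 866 bp past the start of UTR2, and the promoters of CYC7 and UTR4 were under them too. Rtg3p in gcn4Δ had a peak at KRE6 in the first IP, of 115, and at FKS1 in the second, of 72.4, and at no member in 2 IPs, beside 0.653% of all promoters. No member was separated between strains for either factor. Among all promoters, 0.28% were higher and 0% lower in every sut1Δ IP for Nrg1p, and 0.0311% higher and 0.295% lower in every gcn4Δ IP for Rtg3p.

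The 5 daughter-cell separation genes had few peaks. EGT2, an endoglucanase-like gene, had a Swi6p score of 366 in the first wild-type IP and none in the second, and CTS1, the endochitinase of the septum, had 185 and none. SCW11 had 1 Gcn4p peak in rtg3Δ, of 206. DSE1 had none in any list. The members without any peak were GAS3, GAS5, BGL2, CHS2, CHS3, PST1, SPI1, PIR1, PIR3 and DSE1. They include 2 of the 3 chitin synthases, 3 of the 7 glucan remodelling genes and 2 of the 4 PIR genes. Having no peak was common in the whole annotation, where 50.2% of promoters had one in any list, so these counts show nothing particular to a role.

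Peaks were also counted over 75 further genes for wall synthesis, its signalling pathway and mannan synthesis. Of these, 5 (6.67%) had Swi6p in both wild-type IPs, beside 5.66% of all promoters. For Swi4p, 5 (6.67%) had a peak in wild type, beside 2.26%, and 7 (9.33%) in swi6Δ, beside 6.1%. PSA1, which makes GDP-mannose, had Swi6p scores of 2011 and 686, ECM33, a GPI wall protein, had 1423 and 1110, and FKS3 had the scores of SCW10, whose peak it shares. For Swi4p the leading genes were FKS3, the stress sensor gene WSC2, at 1578 in wild type and 1715 in swi6Δ, and PSA1 at 1032 and 1318. None of the 75 had a Swi6p peak in swi4Δ. Sut1p was led by TIR3, a hypoxic mannoprotein, at 387, 1417 and 0 in wild type, by FLO9, a flocculin, at 379, 787 and 0, and by MNN9, of mannan polymerase, at 0, 0 and 645. As at the members, the first and second wild-type IPs went together at TIR3 and FLO9 and the third stood apart.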

How the data were processed

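Anti-myc ChIP-Seq had 30 IPs and 20 INPUT samples. By the labels, each Gcn4p and Rtg3p IP had its own INPUT. For Nrg1p, Sut1p and Swi6p the IPs of a strain shared a single INPUT, so their lists do not have separate controls. Per the submitters' processing notes, reads of 42 bases were handled with CASAVA 1.8 and Novoalign 2.07.0 on build R64, and the authors kept uniquely aligned reads and called peaks in each IP against INPUT with MACS 1.4.0rc2, without pooling. The deposited score of a peak is the authors' MACS score, at least 50. Depth per sample is unknown, so no interval or detection limit is given, and n is small throughout.

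Genes and positions come from the R64 RefSeq table. Strand was read from the W or C in the systematic gene name, which gave a strand for 6430 of 6431 nuclear genes. Peak starts were counted from 1, and 21 that fell before the first base were set to 1. A factor counted as present at a promoter of 600 bp with a peak in at least 2 IPs of a strain (1 for Swi4p). The study asked for at least 2 replicates and defined targets in wild type only. The call from 1 IP for Swi4p and the calls in deletion strains were added here. Shares per IP and scores (0 without a peak) were compared between strains. Single promoters were compared by exact permutation of the strain labels over IPs, two-sided. Since wild-type IPs came from 1 culture, P-values measure the spread between these samples, which may be technical. Functions were tested on simulated data.

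The members and lists were chosen with earlier results of these data known. Genes named are members present in wild type, the 3 leading members per factor, members with a peak in all IPs of a single strain only, members without peaks, the nearest gene under a named member's peak, and the 3 leading of 75 matched pathway genes (76 listed) for Swi6p, Swi4p and Sut1p. Others (members with a peak in a deletion strain or in 1 IP) were chosen after their values were seen. Planned searches for binding motifs were not run, and promoter sequences were not used here. Alternatives were a score of 100, an overlap of 100 bp, promoters of 300 bp, peak midpoints, equal numbers of peaks, other replicate support, a replicate block, omission of each IP and, chosen after seeing the data, counting shared peaks once. Python 3.11.15, NumPy 2.4.6, pandas 2.3.3, SciPy 1.17.1 and Matplotlib 3.10.9 were used.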

Additional observations from a re-analysis of the deposited data

How the results depend on the processing

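Of 55 recounts of members present in wild type, 43 stayed within 1.5 times the value given. The 43 include every recount for Nrg1p and Rtg3p. These could only return 0, since neither factor had a peak at a member in any wild-type IP. Of 63 recomputed differences in share, 52 stayed within the spread between IPs or, for Swi4p with 1 IP per strain, within the binomial error of its wild-type share. That error takes promoters as independent trials, although some members share a peak. It does not measure the spread between IPs, so the stability of the Swi4p difference was not tested. With the midpoint of the peak required in the promoter, the counts were 6 for Swi6p, 8 for Swi4p, 2 for Sut1p and 0 for Gcn4p, and the differences in share, deletion minus wild type, were -19.0 percentage points for Swi6p, 4.76 for Swi4p and 0 for Nrg1p and Rtg3p. A single wild-type IP with a peak as the minimum gave 12 members for Sut1p and 5 for Gcn4p, beside 17.0% and 17.6% of all promoters, and all wild-type IPs gave 0 and 1, beside 0.544% and 4.12%. Leaving out an IP in turn, counts ranged from 0 to 4 for Sut1p and from 1 to 2 for Gcn4p, and the difference for Sut1p from -7.94 to 1.59. For Swi6p the difference was -45.2 with a score of at least 100, -47.6 with promoters of 300 bp and -2.38 with equal numbers of peaks. The last could only be small, since 3 peaks per list can cover few members. For Swi4p, equal numbers gave 4.76. For Nrg1p it was 0 with a score of at least 100 and with equal numbers, and for Gcn4p -2.38 with an overlap of at least 100 bp. The causes of these shifts were not tested, beyond the fewer peaks that a stricter rule leaves. With the replicate block the differences in share were -52.4 for Swi6p, -3.97 for Sut1p, -0.794 for Gcn4p and 1.59 for Nrg1p and Rtg3p. They equal the values without it by construction, since pairing cannot alter a difference of means at equal n, and they are among the 52. The block could change no call either, its smallest possible exact permutation P being 0.25 with 3 pairs and 0.5 with 2. Replicate numbers were not taken as pairs, since strains were grown apart and correlations of same-numbered deviations went from -0.155 to 0.186. The unknown depth of each IP limits every comparison between lists.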
